A study of Homo sapiens with 2 samples.

Results

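Among the stretches of RNA bound by Flag-tagged RBM47, those whose location label names both coding sequence (CDS) and 3'UTR were examined. A cluster is a stretch covered by overlapping tags, and a tag is a unique sequenced fragment of RNA that was crosslinked to the protein. Clusters were taken when their location was given as exactly CDS and 3'UTR, in either order. This rule found 2740 of the 233546 deposited clusters, or 1.17% (Wilson 95% interval 1.13 to 1.22, counting error only), in 2344 of the 7712 genes with any cluster. They are called CDS/3'UTR clusters here. The data came from HITS-CLIP, in which ultraviolet light fixes a protein to the RNA it touches before the protein is pulled down. The cells were MDA231-BrM2a, brain metastatic, non-clonal cells derived from the breast cancer line MDA-MB-231. They stably expressed Flag-tagged wild-type RBM47 from a doxycycline-inducible promoter and received doxycycline at 1 ng/ml for 3 days. There was a single group of 2 replicates, which were not described as separate cultures, and no library without the tagged protein was analysed here. The background of the pull-down was therefore not measured in tags. The study reported no labelled RNA after the pull-down from empty-vector cells or from cells without ultraviolet light.

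RBM47 is an RNA-binding protein with RNA recognition motifs. The stop codon separates the coding sequence, which ribosomes read, from the 3'UTR, which they do not. Proteins bound in a 3'UTR can change how long an mRNA lasts and how much protein it yields, while a translating ribosome can displace proteins from the coding sequence. In most mRNAs the stop codon lies in the last exon, so that a cluster across it can run on into the 3'UTR without meeting an intron. The same pair of labels can also arise where a stretch is coding in one isoform and 3'UTR in another.

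The sequence around the stop codon is shown for the 8 genes with the largest CDS/3'UTR clusters, because the switch from CDS to 3'UTR is what the label records. Each line holds the last 12 coding bases, the stop codon in capitals and the first 15 bases of the 3'UTR, 5′ to 3′ on the sense strand, from the canonical GENCODE transcript on GRCh37. They were found by gene symbol and were not read from cluster coordinates, which are on hg18.
CANX: ccacgaagagagTGAaacaatcttaagagc
DKK1: tgtcagagacacTAAaccagctatccaaat
IL8: gctgagaattcaTAAaaaaattcattctct
CTGF: ggagacatggcaTGAagccagagagtgaga
THBS1: tgtagagatcccTAAtcatcaaattgttga
TIMP3: gccacagaccccTGAgcgccagaccctgcc
TMEM30A: gacattaccattTAAttttatattatgaaa
SSR1: ggatctgatgagTAAatgttcctttgtgca

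To describe where they lay, the clusters were set against the other clusters of their genes and against GENCODE. Of the 2740 clusters, 2704 matched an annotated gene by symbol, and all 2704 lay on its chromosome and strand. In the 2093 genes with a single CDS/3'UTR cluster, 11934 of 12056 clusters labelled CDS alone lay upstream of it (98.99%), and 15753 of 16168 clusters labelled 3'UTR alone lay downstream (97.4%). Labels and gene names rest on annotation, so strand and order were largely fixed in advance. They cannot show that a cluster crosses a stop codon. The next 3'UTR cluster downstream was a median of 26 nt away (quartiles 5 and 100 nt, 1902 genes), and the nearest CDS cluster upstream a median of 1149 nt away (quartiles 50 and 4478 nt, 1733 genes). These distances are genomic and include introns. A further 251 genes held 2 or more CDS/3'UTR clusters, 645 clusters in all. Of 247 such genes matched to GENCODE, 83 had more CDS/3'UTR clusters than annotated stop codons, and 44 had a single annotated stop codon. Whether isoforms account for the label there was not tested. The clusters of these genes held a median of 14 tags (quartiles 8 and 36), against 18 tags (quartiles 9 and 48) in genes with a single one.

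IL6ST, which encodes the signalling receptor subunit gp130, had the most, with 10. They held between 48 and 469 tags by the authors' total. The largest held 110 tags in replicate 1 and 359 in replicate 2, and the one of 48 tags held 4 and 44. PEG10, a retrotransposon-derived gene, held 8 clusters with 5 to 35 tags. In both genes, then, the label was carried by several separate clusters.

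RBM47 tags were far from evenly spread over the CDS/3'UTR clusters. By the authors' total the clusters held 337971 tags. They held 71059 tags in replicate 1, 7.11% of the tags of all its clusters, and 267596 in replicate 2, 7.67%, or 7.39% ± 0.393 (SD, n = 2). The median cluster held 17 tags (4 in replicate 1, 14 in replicate 2). Fewer than 10 tags were found in 790 clusters, at least 10 in 1950, at least 100 in 382 and at least 1000 in 55. The 10 largest held 29.1% ± 0.098 (SD, n = 2) of their tags, and the 100 largest held 66.7% ± 0.120. The 10 largest of the 38634 clusters of 3'UTR alone held 3.09% ± 0.069 of that class and the 10 largest of the 22822 of CDS alone 2.56% ± 0.148, but 10 clusters are a smaller part of these classes.

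CDS/3'UTR clusters made up more of the list at each higher minimum of tags or length. They were 2.05% of clusters with at least 10 tags (Wilson 95% interval 1.964 to 2.145), 8.47% with at least 100 tags (7.69 to 9.32) and 30.6% with at least 1000 tags, or 55 of 180 (24.3 to 37.6). Among the 10 clusters with the most tags of any label, 4 were CDS/3'UTR clusters, and among the first 100, 34. By length they were 11.3% of clusters of at least 400 nt and 44.2% of those of at least 1500 nt, or 19 of 43 (30.4 to 58.9). Clusters of 3'UTR alone also rose in share with the tag minimum, from 16.5% with none. They were 2465 of 4509 with at least 100 tags and 103 of 180 with at least 1000. By length they were 1167 of 2311 of at least 400 nt and 14 of 43 of at least 1500 nt. The rise with tags was thus not particular to CDS/3'UTR clusters. The intervals treat clusters as independent, which neighbouring clusters of a gene are not.

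**Figure D1:**
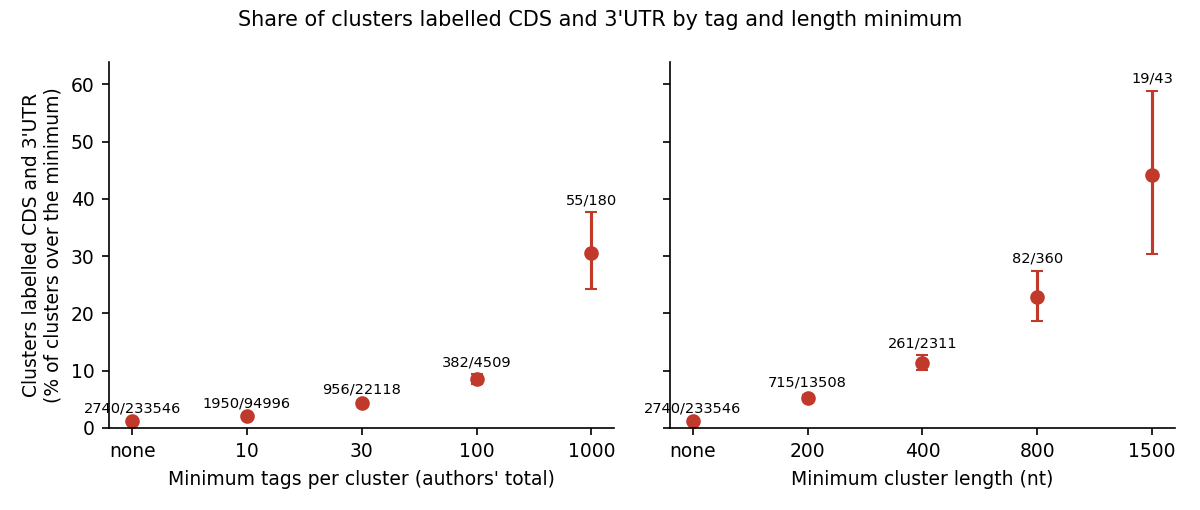
CDS/3'UTR clusters as a percent of all clusters that pass a minimum of tags (left) or length in nt (right); points are shares, bars are Wilson 95% intervals, and the numbers are clusters of the label over all clusters. The share rises from 1.17% with no minimum to 30.6% at 1000 tags and 44.2% at 1500 nt.

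The largest CDS/3'UTR cluster lay in CANX, which encodes calnexin, a chaperone of the endoplasmic reticulum (chr5:179088191-179090605, plus strand, 2414 nt). It held 4453 tags in replicate 1 and 17154 in replicate 2, or 4.69 ± 0.324 per 1000 tags of the replicate (SD, n = 2). That was 87.5% ± 0.855 of all CANX tags, and the next cluster of the gene, in CDS, held 533. Coordinates here and below are as deposited on hg18, with their first base numbered either 0 or 1, which the table does not state.

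DKK1, a secreted Wnt inhibitor, followed with 4158 and 15041 tags (chr10:53746313-53748251, plus strand). IL8, a chemokine now named CXCL8, had 3643 and 12619 tags (chr4:74827015-74828623, plus strand). CTGF, a matricellular growth factor now named CCN2, had 1961 and 7986 tags (chr6:132310982-132312398, minus strand). In these 3 genes the cluster held 94.3% ± 0.539, 94.6% ± 0.028 and 95.2% ± 0.357 of the gene's tags, so little was left for any other cluster. CYR61, the CTGF relative now named CCN1, had 724 and 2713 tags in a cluster with 84.2% ± 0.765 of its tags.

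Among genes of the matrix, THBS1 (thrombospondin 1) had 1150 and 4514 tags. TIMP3, an inhibitor of metalloproteinases, had 1160 and 4317. TIMP3 also held a 3'UTR cluster of 3710 tags, and its CDS/3'UTR cluster accounted for 57.7% ± 2.38 of the gene, against 72.7% ± 0.835 for THBS1. MMP1, the interstitial collagenase, had 687 and 2396 tags, and SRGN, which encodes the proteoglycan serglycin, 802 and 2930.

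The rest of the 20 largest clusters lay in genes of varied roles. SSR1, a subunit of the translocon-associated complex, had 1128 and 4149 tags. TMED5, a p24 cargo receptor, had 1051 and 3862 tags in the longest CDS/3'UTR cluster of all, 2906 nt. TMEM30A, a subunit of phospholipid flippases, had 1030 and 4298 tags, and the integrin subunit ITGAV had 818 and 2902. HSPA13, an HSP70-family protein of microsomes, had 654 and 2532, and the fatty acid elongase ELOVL5 had 704 and 2717. APP, the amyloid precursor protein, had 687 and 2766 tags, ADAM9, a membrane metalloproteinase, 976 and 3208, and the prion protein gene PRNP 607 and 2479. MTDH (metadherin) had 898 and 3118 tags and ANKRD1, a nuclear and sarcomeric ankyrin repeat protein, 1009 and 3802. PRNP held 98.999% ± 0.720 of its tags in this cluster, and SSR1 45.2% ± 1.12, with 3878 tags in its next cluster, in the 3'UTR.

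**Figure D2:**
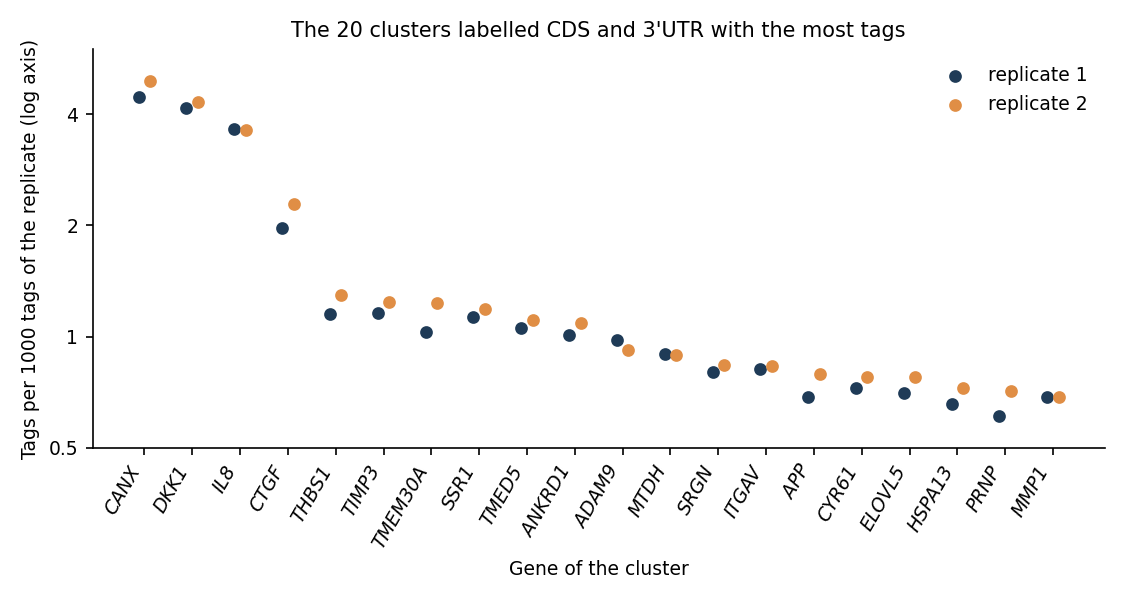
Tags per 1000 tags of the replicate (log axis) for the 20 CDS/3'UTR clusters with the most tags, named by gene; blue points are replicate 1 and orange points replicate 2. CANX leads with 4.69 ± 0.324 (SD, n = 2), and both replicates fall steeply from IL8 and CTGF to THBS1.

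Cluster length was set against the length of the 3'UTR, without comparing positions. The median CDS/3'UTR cluster was 122 nt long (10th percentile 59 nt, 90th percentile 387 nt), and its length was a median of 6.60% of the 3'UTR of the canonical transcript. For the 55 clusters of at least 1000 tags this median was 53.6%, and 16 of them were longer than the whole 3'UTR, among them DKK1 at 228% of an 850 nt 3'UTR, IL8 at 128%, CTGF at 130% and VIM (vimentin, an intermediate filament protein) at 125%. Over all 2704 matched clusters, 64 were longer than the 3'UTR. A cluster longer than the 3'UTR extends into coding or intron sequence, or past the annotated end of that transcript. Where in the cluster its tags lay cannot be told from the table. At the other end of this set were CNIH, a cornichon protein of vesicle transport, at 12.7%, and TM9SF3, a transmembrane protein, at 12.9%.

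**Figure D3:**
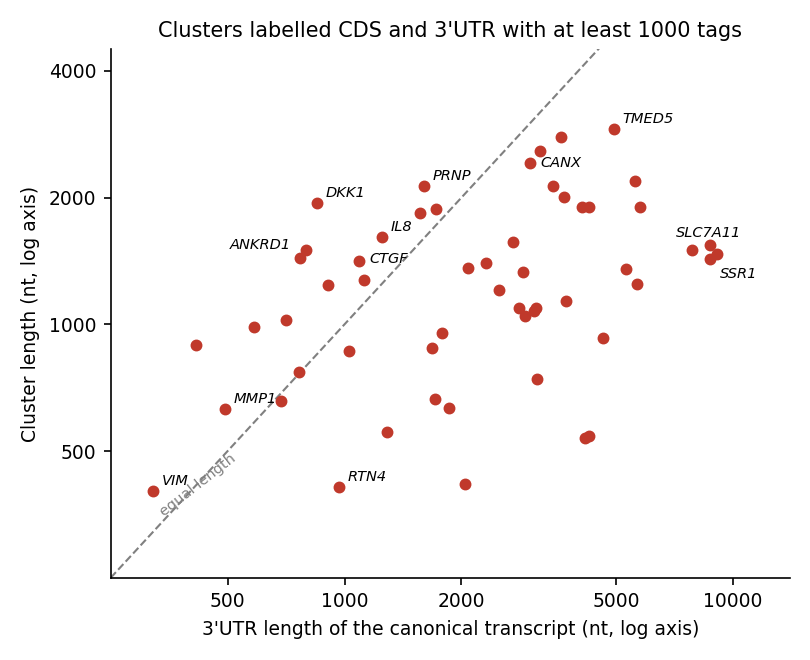
Length of the 55 CDS/3'UTR clusters with at least 1000 tags against the 3'UTR length of the gene's canonical GENCODE transcript (both in nt, log axes); each point is a cluster and the dashed line marks equal length. The 16 longer clusters, among them DKK1, IL8, CTGF and VIM, lie above the line, and SSR1 and SLC7A11, the cystine transporter subunit, lie far below it.

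For most genes the CDS/3'UTR cluster was a minor site. The median share of a gene's tags in its CDS/3'UTR clusters was 6.99% ± 0.437 (SD, n = 2), with quartiles of 2.97% and 16.8% by the authors' total. The share passed 50% in 153 of 2344 genes and 90% in 56. These counts include 50 genes with no cluster of another label, where the share could only be 100%. Of the 153 genes, 72 had more than 100 tags. Among the 2344 genes, 2296 held more than 1 cluster of any label. In 363 of the 2296 the cluster with the most tags was a CDS/3'UTR cluster (15.8%, Wilson 95% interval 14.4 to 17.4). By tags per nt it was one in 9.36%. RTN4, a reticulon that shapes the endoplasmic reticulum, shows how a large cluster can be a small part of a gene. Its CDS/3'UTR cluster held 542 and 2260 tags, 23.0% ± 2.15 of the gene, beside a 3'UTR cluster of 4697. FAT1, a giant cadherin, had 1825 tags in such a cluster, 13.75% of its total.

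CDS/3'UTR clusters were then compared with the labels they border, over clusters of at least 10 tags. Mean log2(tags + 1) was 3.27 in replicate 1 and 5.06 in replicate 2 for CDS/3'UTR clusters, 2.80 and 4.57 for 3'UTR alone and 2.30 and 4.05 for CDS alone. CDS/3'UTR clusters were higher than 3'UTR-alone clusters by 0.47 and 0.50 in the replicates, 0.48 ± 0.02 (SD, n = 2), and higher than CDS-alone clusters by 0.96 and 1.01, 0.99 ± 0.03. Against the clusters labelled 5'UTR and CDS, which mark the start of coding, they were higher by 0.94 and 0.96, 0.95 ± 0.02. With 2 libraries no test over replicates can reach a p below 0.5, and these differences were not tested; they were larger than the spread between the replicates.

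The difference from 3'UTR-alone clusters went with length. The median length was 160 nt for CDS/3'UTR clusters of at least 10 tags, against 121 nt for 3'UTR alone and 108 nt for CDS alone. Within length bins the difference from 3'UTR alone was -0.03 ± 0.01, and per nt it was 0.0036 ± 0.019, within the spread between replicates. In clusters of at least 200 nt but under 400 nt the medians were 62.5 tags for CDS/3'UTR, 67 for 3'UTR alone and 46 for CDS alone. In clusters of 800 nt or more they were 1042.5 tags (82 clusters), 777 tags (197 clusters) and 390 tags (11 clusters). Only in this bin was the CDS/3'UTR median above that of 3'UTR alone by a wide margin. The bin has no upper limit and is not matched in length. Of its clusters, 19 of the 82 and 14 of the 197 were at least 1500 nt long. The part of length in this gap was not tested. Against CDS alone the difference within length bins was 0.31 ± 0.01 on the log2(tags + 1) scale, and per nt, over all lengths, 0.27 ± 0.03.

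**Figure D4:**
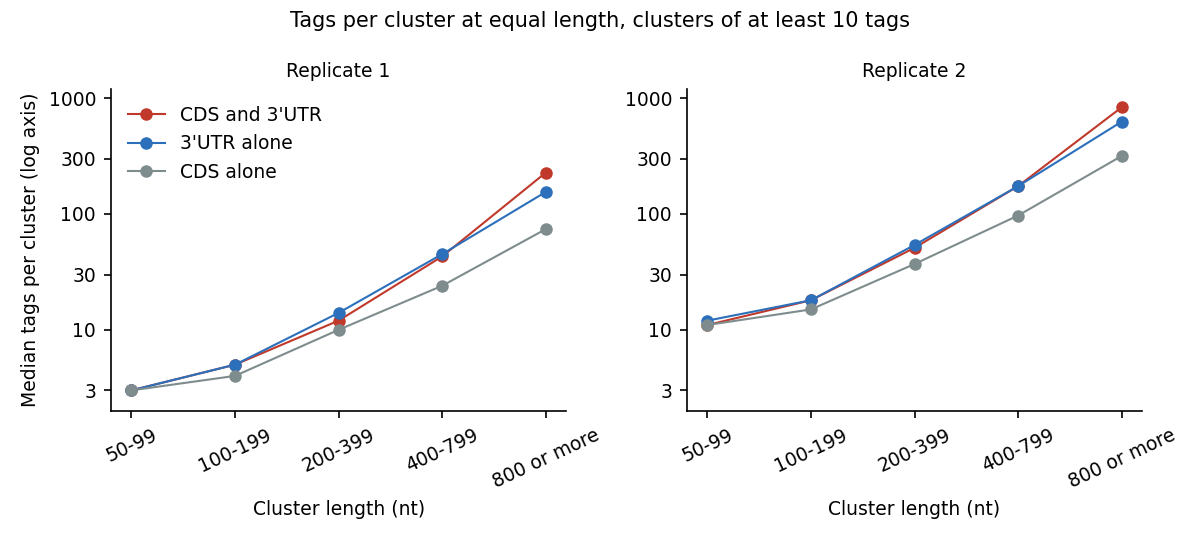
Median tags per cluster (log axis) by cluster length in replicate 1 (left) and replicate 2 (right), for clusters of at least 10 tags labelled CDS and 3'UTR (red), 3'UTR alone (blue) and CDS alone (grey). Red and blue run close together below 800 nt, and grey lies below both from 100 nt. At 800 nt or more the red median is 227.5 tags in replicate 1 and 834.5 in replicate 2, against 155 and 627 for blue. This last bin has no upper limit, so lengths in it are not matched.

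The comparison was repeated inside genes, where the amount of each mRNA is shared between the labels, apart from isoforms. In 1571 genes with both kinds of cluster, tags per nt were lower in CDS/3'UTR than in 3'UTR-alone clusters by 0.36 ± 0.01 (log2, SD, n = 2), with 937 genes lower and 297 higher in both replicates. In 1320 genes with CDS-alone clusters, they were higher by 0.43 ± 0.07, with 727 genes higher and 210 lower in both. On average within genes, CDS/3'UTR clusters thus lay below 3'UTR-alone and above CDS-alone clusters in tags per nt. The 1571 and 1320 genes are not the same set, so this order was not shown in the same genes. A minimum of 10 tags per cluster sets a higher floor per nt for short clusters than for long ones, and its part in these values was not tested.

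The genes with a CDS/3'UTR cluster were described by lists. Genes with more than 100 tags held a CDS/3'UTR cluster more often (1952 of 3801, 51.4%) than all genes with a cluster did (30.4%), so the lists were read over the former. No set test was run. Medians and tag sums of a list cover all its CDS/3'UTR clusters, whatever the tags of the gene. Among endoplasmic reticulum folding proteins with more than 100 tags, 21 of 23 (91.3%) held one. CANX, HSPA13 and CALU, a calcium-binding protein of the secretory pathway, were at the top. CALU had 194 and 708 tags. HSPA5, the main HSP70 chaperone of the compartment, had clusters but none with this label. Extracellular matrix and protease regulators followed with 19 of 22 (86.4%) and a median of 190 tags per such cluster. The median over all CDS/3'UTR clusters was 17, but that includes genes of 100 tags or fewer. All 19 of the matrix genes had more than 100 tags, so these medians are not matched in depth. Secretory pathway transport proteins came to 35 of 45 (77.8%), led by SSR1, TMED5 and RTN4.

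Secreted signalling proteins came to 14 of 19 (73.7%). At any tag level, 15 genes of this list held 18 CDS/3'UTR clusters. These held 51235 tags, 15.2% of all tags in CDS/3'UTR clusters, most of them in DKK1, IL8 and CTGF. VEGFA, the vascular growth factor, had 17 and 50 tags in its larger cluster. Immediate early and AP-1 proteins came to 10 of 14 (71.4%). They included ANKRD1 and MCL1, an inhibitor of apoptosis with 188 and 836 tags, and ZFP36L1, an mRNA decay factor with 66 and 166 tags. None of the FOS and JUN family genes with clusters in this list (FOS, FOSB, FOSL1, FOSL2, JUN, JUNB and JUND) held one labelled CDS and 3'UTR. The same was true of the transcription factors EGR1 and ATF3. Genes named as lacking such a cluster, here and in the other lists, were drawn from genes with any cluster. In this list 24 genes had any cluster and only 14 passed 100 tags. Of the 24, 10 held a CDS/3'UTR cluster (41.7%), against 30.4% of all genes with a cluster. These absences were not matched for tags per gene and were not tested. Actin cytoskeleton proteins came to 15 of 20 (75%). VIM, counted in this list though an intermediate filament protein, had 466 and 1487 tags, CAPN2, a calpain protease, 76 and 304, and MSN (moesin) 60 and 228.

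The hnRNP proteins came to 14 of 20 (70.0%). At any tag level, 17 of their genes held such clusters, with a median of 20.5 tags per cluster. PCBP1 had 96 and 370 tags, HNRNPF 80 and 341 and PTBP3 24 and 121. SR proteins came to 6 of 10, and the median cluster held 23 tags over 7 genes at any tag level. SRSF1 had 25 and 119 tags, SRSF6 4 and 35 and SRSF10 10 and 23. Translation factors came to 8 of 18 (44.4%) with a median of 120.5 tags, above those of the endoplasmic reticulum folding proteins (100) and secretory transport proteins (54.5). EIF4G2 had 240 and 998 tags, EIF4A2 62 and 253 and EIF5 36 and 133. EEF1A1 and PABPC1 had clusters but none with this label.

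Cytosolic ribosomal proteins passed 100 tags in only 8 genes, of which 5 (62.5%) held a CDS/3'UTR cluster. Over all their tag levels the median such cluster held 13 tags. Over the 20 genes with one, the CDS/3'UTR clusters of a gene together held a median of 49% of its tags. RPL5 had 20 and 65 tags, RPS23 7 and 35 and RPS4X 11 and 28. Proteasome subunits came to 5 of 11 (45.5%), with PSMA1 at 28 and 109 tags, PSMD12 at 8 and 33 and PSMA4 at 4 and 17. Respiratory chain subunits came to 4 of 8, with COX7A2L at 14 and 42, ATP5L at 9 and 28 and NDUFS1 at 5 and 21. Histones came to 2 of 6 (33.3%), H2AFZ at 17 and 48 and H2AFY at 7 and 22.

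**Figure D5:**
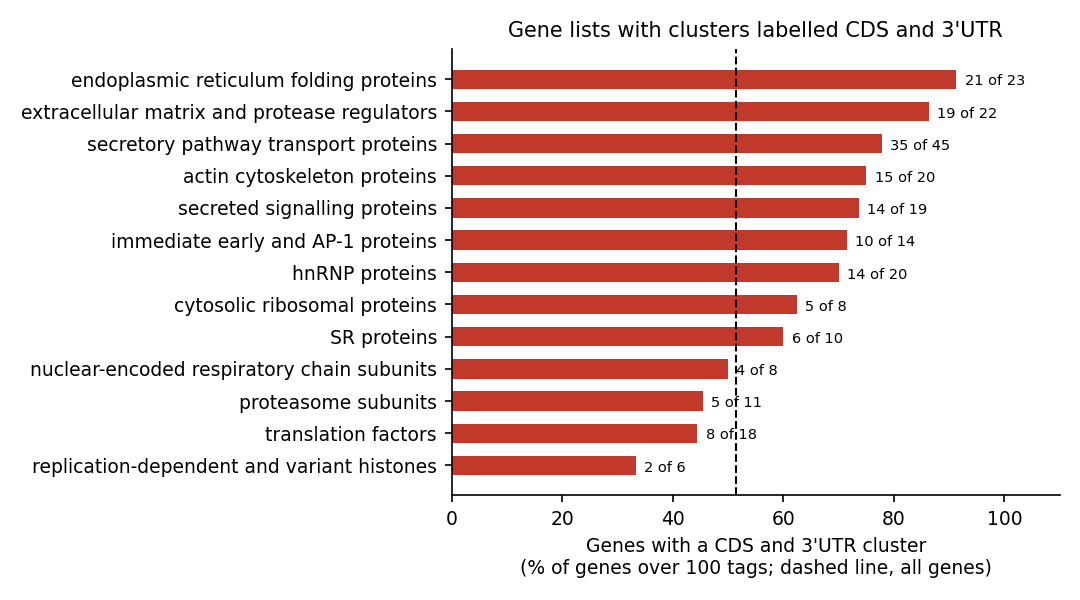
Percent of genes with more than 100 tags that held a CDS/3'UTR cluster, for 13 gene lists (bars, with counts) and for all 3801 such genes (dashed line, 51.4%). Endoplasmic reticulum folding proteins lie highest at 91.3% and histones lowest at 33.3%, on counts between 6 and 45 genes a list.

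Of 14 genes that the study named, 12 held a CDS/3'UTR cluster (85.7%). All 14 had more than 100 tags, and over all such genes the share was 51.4% (1952 of 3801). The study named them in describing its own results, so they are no independent choice. RBM47 itself had 83 and 355 tags, 21.9% ± 1.30 of its tags, and its largest cluster elsewhere held 515 tags in CDS. RNA of the transgene and of the cell's own gene cannot be told apart in this table. LIMCH1, an actomyosin regulator, had 9 and 40 tags and HTATIP2 had 6 and 25. MBNL1, a splicing regulator, had 3 and 12 tags, only 0.417% ± 0.057 of that gene. MDM4, a regulator of p53, had 3 and 12, MXI1 3 and 11, SLK 2 and 5 and HBP1 1 and 5. SEC31A and TNC had no cluster of this label.

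The bases on either side of the stop codon were compared in 100 nt windows of the canonical transcripts. The first 100 nt of the 3'UTR held 30.6% U in 2290 genes with a CDS/3'UTR cluster and 31.6% in the 55 with a cluster of at least 1000 tags. It was 30.1% in 830 genes with separate CDS and 3'UTR clusters of at least 10 tags but no CDS/3'UTR cluster, and 25.9% over all 18023 protein-coding genes. The last 100 nt of coding sequence held 23.9%, 24.0%, 22.2% and 20.9% U in the same 4 sets. The motif UUUUU, searched on the sense strand, was found in the 3'UTR window of 28.6% of the genes with a CDS/3'UTR cluster, 33.7% of those with separate clusters and 18.8% of all genes. AUUUA was found in 20.4%, 18.8% and 12.9%, and a window can count for both motifs. Both kinds of bound gene had a higher mean U content there than all genes. Their G and C content was lower, at 40.2% with a CDS/3'UTR cluster and 41.3% with separate clusters, against 48.9% over all genes. In the coding window it was 45.7%, 47.2% and 52.3%. The median 3'UTR was 2123 nt, 2125 nt and 1183 nt long. A rise in U was thus not told apart from a general rise in A and U. These windows were taken by gene, not by cluster, and were not tested. In the 8 sequences above, TMEM30A has a run of T after its stop codon and IL8 a run of A.

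Agreement between replicates was then examined. Across the 2740 clusters Spearman's correlation of the tags was 0.828, and 0.905 in clusters with at least 30 tags. Over 3'UTR-alone clusters it was 0.732 and over CDS-alone clusters 0.510. Clusters are not independent replicates and the labels differ in depth, so no p is given. The split between replicates was tested for each cluster with an exact binomial test against the replicate 1 share of all tags, 22.3%, with Benjamini-Hochberg adjustment over all 233546 clusters. It called 3 CDS/3'UTR clusters, against a background of 0.0111% of all clusters (26 of 233546). The test has more power in deep clusters: among clusters of at least 100 tags it called 3 of 382 CDS/3'UTR clusters and 23 of all 4509. At an unadjusted p under 0.05 it marked 140 of the CDS/3'UTR clusters (5.11%) and 3.04% of all clusters.

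The clusters called were those of CANX (adjusted p 8.1e-05 in the exact binomial test), CTGF (1.6e-05) and TMEM30A (0.0024). All had a lower share in replicate 1 than the 22.3% of all tags, at 20.6%, 19.7% and 19.3%. Over the CDS/3'UTR clusters of at least 100 tags the replicate 1 share had a median of 20.6%. Against the median share over all clusters, 20.8%, none of these passed, and the exact binomial test called IL8 instead (adjusted p 0.014), whose share of 22.4% was higher in replicate 1. With a beta-binomial test no CDS/3'UTR cluster was called, and 10 of all clusters were. The calls in single clusters thus depended on the share they were tested against.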

How the data were processed

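The deposited values were counts of unique tags, listed for every cluster by replicate and as a total; the authors collapsed reads by a degenerate barcode and grouped overlapping tags into clusters with location labels. The submitters' processing notes name Novoalign and hg18, and 793 clusters on chromosomes 3 and 19 lie past the GRCh37 ends, so no coordinate was moved to GRCh37. The tag columns summed to 999047 and 3489697; the smallest cluster counts were 1 tag in either replicate and 5 in total, so these are not library depths. All columns of tags belonged to the samples of the series. Length is listed end minus start. Clusters were filtered and ranked by the authors' total, and compared by replicate as log2(tags + 1). Length bins began at 50, 100, 200, 400 and 800 nt. Intervals and the binomial test (threshold 0.05) cover counting error only and compare libraries, not conditions. On simulated data with 200 of 233546 clusters changed 4-fold in odds, 182 were recovered with 2 false calls. The changed clusters were drawn only from those of at least 100 summed replicate tags, and the simulated splits were purely binomial, without overdispersion. Recovery in clusters of fewer tags was not simulated. Of 2344 gene IDs, 2342 matched RefSeq symbols; 3'UTR lengths and stop codons came from canonical GENCODE transcripts by symbol. Named genes were those of the 20 largest clusters, the 3 with the most tags in each list, clusters with a called split, the 5 longest clusters and the study's genes, of which 1 is not reported here; IL6ST, PEG10, FAT1, CNIH, TM9SF3, SLC7A11 and listed genes without such a cluster were chosen after their values were seen. The members and lists were chosen with earlier results of these data known. Python 3.11.15 with pandas 2.3.3 and scipy 1.17.1 was used. Alternatives covered tag minimums, clusters whose total equals the summed replicate tags, length bins, comparisons within genes, single replicates and other split tests.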

Additional observations from a re-analysis of the deposited data

How the results depend on the processing

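Of 64 alternative values, 31 stayed within the limits set, 27 moved and 6 changed sign. The number of CDS/3'UTR clusters was 956 at a minimum of 30 tags and 382 at 100 tags, and 701 to 1703 on single replicates (701 without replicate 2), against 1950. Their share of tags was 9.28% and 13.0% over clusters of at least 10 and 30 tags, and 7.11% to 7.67% on single replicates. The log2 difference in tags from 3'UTR alone was 0.46 over all clusters, 0.53 at 30 tags and 0.56 in genes with a single CDS/3'UTR cluster (an alternative added after seeing the data, as were length bins for CDS alone and for tags per nt), 0.47 to 0.50 on single replicates, and turned to -0.033 within length bins and -0.078 within genes. From CDS alone it was 0.90 where replicate tags summed to the total, 1.06 in genes with a single one and 0.31 within length bins. From 5'UTR and CDS it was 0.98 over all clusters and 0.87 where tags summed. Per nt, the difference from 3'UTR alone was 0.0036; it was 0.078 at 30 tags, -0.0028 over all clusters, -0.36 within genes, -0.077 within length bins and -0.0098 to 0.017 on single replicates. Per nt from CDS alone it was 0.15 at 30 tags, 0.43 within genes and 0.22 within length bins. Spearman's correlation between replicates was 0.8502 at 10 tags and 0.905 at 30 tags. The split test made 3 calls, against 1 (IL8, not among the 3) with the median share and 0 with a beta-binomial, whose overdispersion of 0.0028 came from clusters of at least 30 tags and which called 10 over all clusters. The median share of a gene was 9.67% and the share of genes led by such a cluster 18.6% at 10 tags, and 9.36% by tags per nt. The median length was 160 nt and 257.5 nt at 10 and 30 tags, and the 10 largest clusters held 29.6% of tags at 10 tags. The cause of these shifts was not tested. No paired analysis was possible because only 1 group exists. Replicate 1, with a median of 2 tags over all clusters, limits single clusters of few tags.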

Other observations

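A CDS/3'UTR cluster on the plus strand of the mitochondrial chromosome, 155 nt long, carried no gene ID and held 22 tags in replicate 1 and 55 in replicate 2. The other cluster without a gene ID, on chromosome 9, was 222 nt long and held 8 and 16 tags. The symbol "15-Sep" in the table pairs with the gene ID now named SELENOF, a selenoprotein of the endoplasmic reticulum, and its CDS/3'UTR cluster held 250 and 920 tags. ADAM9 held 4 CDS/3'UTR clusters, and the other three had 73 to 150 tags beside its largest of 4184.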
